A study of Mus musculus with 10 samples.

Results

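Pmel-1 mouse T cells electroporated with IL-12 mRNA alone (IL12) were set against the same cells electroporated alone with mRNA for a decoy-resistant IL-18 (DRIL18). The members were taken by their labels: the 2 IL12 and the 2 DRIL18 libraries, 4 of the 10 libraries of the series, compared over all 15777 expressed genes. Pmel-1 cells are CD8 T cells with a transgenic receptor for gp100, a melanoma antigen. Spleen cells were stimulated with human gp100 for 48 h, kept with human IL-2 for a further 48 h, electroporated with mRNA, and used 24 h later for bulk RNA sequencing. In the IL12 group the electroporated mRNA encoded single-chain IL-12, and in the DRIL18 group it encoded an IL-18 variant that the decoy receptor does not block. The control group is labelled Mock, and the labels do not tell which mRNA, if any, it received. It served to place each gene and had no part in the contrast of IL12 with DRIL18, but like all 10 libraries it entered the filter, the scaling and the estimate of spread. All groups share the transgenic receptor, the gp100 stimulation and IL-2, so no group holds resting cells. The other 4 libraries, a mixture of both mRNAs and cells without electroporation, entered the fit in the same way and are in no contrast here. The 2 libraries of a group are labelled biological replicates, without a word on separate mice or cultures. The p-values therefore measure the spread between these libraries, which may be technical.

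IL-12 is a secreted cytokine that binds a receptor of IL12RB1 and IL12RB2, activates the kinases JAK2 and TYK2 and acts mainly through the transcription factor STAT4. IL-18 belongs to the IL-1 family. It binds IL18R1 and IL18RAP, recruits the adaptor MYD88 and IRAK kinases, and activates NF-kB and p38. In T cells both cytokines are known as inducers of interferon-gamma, and IL-18 is held in check by the secreted decoy IL-18-binding protein.

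Library totals lay between 31281944 and 35062545 counts, with 20326 to 21358 genes detected. The CD8 T cell markers were high in every library: the 10 markers summed to 6976 and 6637 CPM (read counts per gene scaled to library size) in IL12 cells, 8034 and 8133 CPM in DRIL18 cells and 8581 and 8403 CPM in Mock cells. Of these 10 genes, 5 were lower in IL12 than in DRIL18 and 0 were higher. Of all tested genes, 20.6% were lower and 18.9% higher by the test described below. The 4 neutrophil markers summed to at most 0.118 CPM in these libraries, with S100a8 and S100a9 at 0 counts in all 4 IL12 and DRIL18 libraries. The 6 dendritic cell markers summed to 21.8 and 23.0 CPM in IL12 cells, 5.74 and 5.25 CPM in DRIL18 cells and 8.83 and 9.31 CPM in Mock cells. Clec9a and Siglech were at 0 in all 4 IL12 and DRIL18 libraries, the rise of the sum in IL12 lay in Xcr1, and Itgax was lower, with 0.817 and 1.35 CPM in IL12 cells against 1.76 and 2.15 CPM in DRIL18 cells. Of the 3 NK cell markers only Klre1 was expressed enough to be tested, and it was higher in IL12, with 0.915 and 1.13 CPM in IL12 cells against 0.346 and 0.413 CPM in DRIL18 cells. The 6 B cell markers summed to 469 and 436 CPM in IL12 cells, 897 and 946 CPM in DRIL18 cells and 677 and 678 CPM in Mock cells, nearly all of it Ighm. The 6 gamma-delta T cell markers summed to 69.8 and 60.9 CPM in IL12 cells, 99.4 and 108 CPM in DRIL18 cells and 123 and 126 CPM in Mock cells.

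Il18 reads stood out in the DRIL18 libraries, but no such rise of Il12a or Il12b reads was seen in the IL12 libraries. Il18 had 1.83 and 1.73 CPM in IL12 cells, 412 and 401 CPM in DRIL18 cells and 1.84 and 1.84 CPM in Mock cells. The DRIL18 libraries stood far above those of IL12 and Mock. Il12b, which encodes the p40 chain of IL-12, had 0 counts in the IL12, DRIL18 and Mock libraries. Il12a, the p35 chain, had 0.0653 and 0.0315 CPM in IL12 cells, against 0.0866 and 0.265 CPM in DRIL18 cells. The counts thus hold no direct check of the IL12 label through its own transcript. A cell's own Il18 transcript cannot be told apart from the delivered one, so the Il18 difference is not read as a response.

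Between IL12 and DRIL18, 2987 genes were higher in IL12 (18.9% of those tested) and 3248 were lower (20.6%) at an adjusted p under 0.05 by edgeR's quasi-likelihood F test, 39.5% in either direction. These shares stand as background for the counts of listed genes below, which were not tested against them. Over the called genes, the absolute log2 fold change had a median of 0.38. A difference of at least 2-fold was found for 575 genes higher in IL12 (3.64%) and 654 lower (4.15%), and 233 genes were at least 4-fold higher and 193 at least 4-fold lower. Of the 9542 genes that were not called, the p does not show that they were equal. Over all tested genes, 4073 (25.8%) had a 95% interval of the difference that lay within 1.2-fold either way. With library sizes left unscaled, 1943 genes were higher and 4786 lower, so that 28.9% of the calls were higher in place of 47.9%, and the median log2 fold change over all genes moved to -0.108 from -0.015.

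The receptor for IL-18 was among the genes that differed most. Il18r1, the ligand-binding chain, had 814 and 841 CPM in IL12 cells, 39.0 and 40.7 CPM in DRIL18 cells and 73.6 and 72.0 CPM in Mock cells. Il18rap, the signalling chain, had 418 and 429 CPM in IL12 cells, 54.3 and 49.3 CPM in DRIL18 cells and 80.8 and 79.5 CPM in Mock cells. For both chains IL12 was the highest of these groups and DRIL18 lay below Mock. The log2 fold change of IL12 over DRIL18 was 4.38 ± 0.05 (SE) for Il18r1, with an adjusted p of 7.16e-34, and 3.03 ± 0.05 for Il18rap, with an adjusted p of 4.21e-29. Il1rl1, which encodes ST2, the IL-33 receptor of the same family, had 104 and 103 CPM in IL12 cells, 0.577 and 0.619 CPM in DRIL18 cells and 0.849 and 0.714 CPM in Mock cells. Its log2 fold change of IL12 over DRIL18 was 7.43 ± 0.12. Of 9 tested genes of the IL-18 and IL-1 receptor family, 3 were higher in IL12, 3 were lower and 3 were not called, with a median log2 fold change of -0.12. The 3 that rose were Il18r1, Il18rap and Il1rl1. The 3 that fell included Il18 itself, whose difference is not read as a response.

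The start regions of both receptor chains are shown because these genes moved together, in opposite directions against Mock under the 2 cytokines, and that of Nfkbia because its level in DRIL18 cells stood above both IL12 and Mock. They run from 250 bases before to 50 bases after a gene start annotated by RefSeq on GRCm38.p6, 300 bases in all, on the strand of the gene. Capitals mark matches to TTCNNNGAA, a spacing typical of STAT sites and the same on both strands, or to GGANNTTCC on either strand (GGAANNTCC when read on the other), a core of NF-kB sites.
Il18r1, chr1:40465756-40466055, plus strand, one of 3 annotated starts: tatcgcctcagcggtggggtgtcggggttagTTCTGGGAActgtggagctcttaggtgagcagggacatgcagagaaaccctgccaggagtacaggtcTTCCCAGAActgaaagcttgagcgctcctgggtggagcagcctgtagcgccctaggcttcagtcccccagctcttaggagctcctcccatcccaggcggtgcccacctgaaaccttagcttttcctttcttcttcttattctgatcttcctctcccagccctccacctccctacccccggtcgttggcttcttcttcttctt
Il18rap, chr1:40515112-40515411, plus strand: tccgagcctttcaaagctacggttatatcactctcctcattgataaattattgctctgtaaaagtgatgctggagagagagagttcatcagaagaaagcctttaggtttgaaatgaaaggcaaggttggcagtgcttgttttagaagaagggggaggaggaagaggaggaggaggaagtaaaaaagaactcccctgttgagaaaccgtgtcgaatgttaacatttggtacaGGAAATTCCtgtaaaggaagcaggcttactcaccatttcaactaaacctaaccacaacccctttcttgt
Nfkbia, chr12:55492598-55492897, minus strand: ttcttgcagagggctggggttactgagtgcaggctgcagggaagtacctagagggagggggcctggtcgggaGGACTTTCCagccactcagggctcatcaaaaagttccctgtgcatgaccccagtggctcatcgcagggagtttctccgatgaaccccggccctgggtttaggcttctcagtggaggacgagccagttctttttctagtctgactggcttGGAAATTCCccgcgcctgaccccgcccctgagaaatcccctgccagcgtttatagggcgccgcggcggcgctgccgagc

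Il18r1 holds 2 STAT-type matches at this start and 0 at its other annotated starts, Il18rap holds 1 NF-kB-type match, and Nfkbia holds 2. Over all tested genes, 10365 of 15777 had such a region, of which 8.36% held the STAT-type motif and 5.52% the NF-kB-type motif, and in 13 of the 13146 regions searched matches to both overlapped. Among genes at least 2-fold higher in IL12 the shares were 9.33% and 7.77% of 386 with a region, and among genes at least 2-fold lower 8.76% and 7.60% of 434. Among genes up in IL12 and down in DRIL18 against Mock the STAT-type share was 7.24% and the NF-kB-type share 8.14% of 221 with a region, and among genes down in IL12 and up in DRIL18 they were 13.2% and 3.88% of 129. These shares were not tested. A match is a run of letters and not a measured binding site.

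Receptors and signalling components on the IL-12 side differed by member. Il12rb2, the inducible chain of the IL-12 receptor, had 264 and 275 CPM in IL12 cells, 119 and 120 CPM in DRIL18 cells and 92.5 and 85.8 CPM in Mock cells, a log2 fold change of IL12 over DRIL18 of 1.18 ± 0.04. Il6st, the shared signalling chain gp130 of IL-6 family receptors, had 487 and 497 CPM in IL12 cells, 81.9 and 84.6 CPM in DRIL18 cells and 85.7 and 89.3 CPM in Mock cells. Il12rb1, the constant chain, was close in both groups, with 164 and 162 CPM in IL12 cells and 182 and 177 CPM in DRIL18 cells. Its log2 fold change of -0.14 ± 0.04 passed the test (adjusted p = 0.00443) but not without DRIL18 replicate 1 (adjusted p = 0.0754). Of the 8 tested genes of the IL-12 and IL-23 receptor family, 3 were higher, 4 lower and 1 not called, with a median log2 fold change of 0.20. Stat4 was not called, with 83.5 and 79.2 CPM in IL12 cells against 84.0 and 83.6 CPM in DRIL18 cells and a 95% interval of the log2 difference from -0.14 to 0.05, although it was called lower in IL12 with unscaled library sizes (log2 fold change -0.14, adjusted p = 0.0153). Among 11 JAK and STAT genes, 5 were higher in IL12 and 4 lower, a balance that turned to 4 higher and 6 lower with unscaled library sizes. Of 11 genes of SOCS proteins and related suppressors of cytokine signalling, 3 were higher, led by Socs3 with a log2 fold change of 1.54 ± 0.05, 3 were lower and 5 were not called.

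On the IL-18 side of signalling, Myd88 had 125 and 132 CPM in IL12 cells, 46.0 and 48.6 CPM in DRIL18 cells and 51.4 and 51.8 CPM in Mock cells. The adaptor was therefore higher in IL12 by a log2 fold change of 1.44 ± 0.05, while DRIL18 over Mock did not pass (log2 fold change -0.12, adjusted p = 0.0786). That fall passed with the mark bis of some columns as a covariate (log2 fold change -0.17, adjusted p = 0.0338). Irak2, a kinase of the same complex, was higher in IL12 by 1.36 ± 0.08 on the log2 scale. Irak3, known as an inhibitor of IRAK signalling, had 0.523 and 0.598 CPM in IL12 cells, 4.50 and 4.48 CPM in DRIL18 cells and 1.70 and 1.93 CPM in Mock cells, so that IL12 lay below Mock and DRIL18 above it. Of 20 genes of MyD88, IRAK and TRAF signalling, 7 were higher in IL12, 4 lower and 9 not called, a balance that turned to 6 higher and 8 lower with unscaled library sizes. In the main fit, 18.9% of all tested genes were higher and 20.6% lower.

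More genes of NF-kB subunits, inhibitors and feedback targets were lower in IL12 than higher. Nfkbia, the inhibitor that NF-kB itself induces, had 47.4 and 42.8 CPM in IL12 cells, 110 and 116 CPM in DRIL18 cells and 44.5 and 43.0 CPM in Mock cells. Relb, a subunit of the non-canonical pathway, had 25.4 and 22.2 CPM in IL12 cells, 52.5 and 49.1 CPM in DRIL18 cells and 18.0 and 19.8 CPM in Mock cells. Both genes stood apart in DRIL18 cells, with log2 fold changes of IL12 over DRIL18 of -1.33 ± 0.05 for Nfkbia and -1.09 ± 0.07 for Relb. Map3k8, a kinase upstream of ERK, went the other way with a log2 fold change of 1.92 ± 0.06. Of 26 tested members, 7 were higher in IL12, 12 lower and 7 not called, with a median log2 fold change of -0.28 beside -0.015 over all genes. Of 10 genes of the GADD45 and p38 pathway, 4 were higher, 5 lower and 1 not called. Gadd45g and Gadd45b, related activators of the p38 cascade, moved apart: Gadd45g had 183 and 186 CPM in IL12 cells against 18.1 and 18.4 CPM in DRIL18 cells, and Gadd45b had 10.9 and 9.97 CPM in IL12 cells against 18.0 and 16.9 CPM in DRIL18 cells.

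AP-1 genes were mostly higher in IL12. Jun had 295 and 292 CPM in IL12 cells, 22.1 and 27.0 CPM in DRIL18 cells and 30.6 and 33.6 CPM in Mock cells, with a log2 fold change of IL12 over DRIL18 of 3.58 ± 0.06. Fos and Fosl2, partners of Jun, were higher by 3.26 ± 0.38 and 2.17 ± 0.06 on the log2 scale. Of 12 tested members, 9 were higher, 2 lower and 1 not called, with a median log2 fold change of 0.85.

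**Figure D1:**
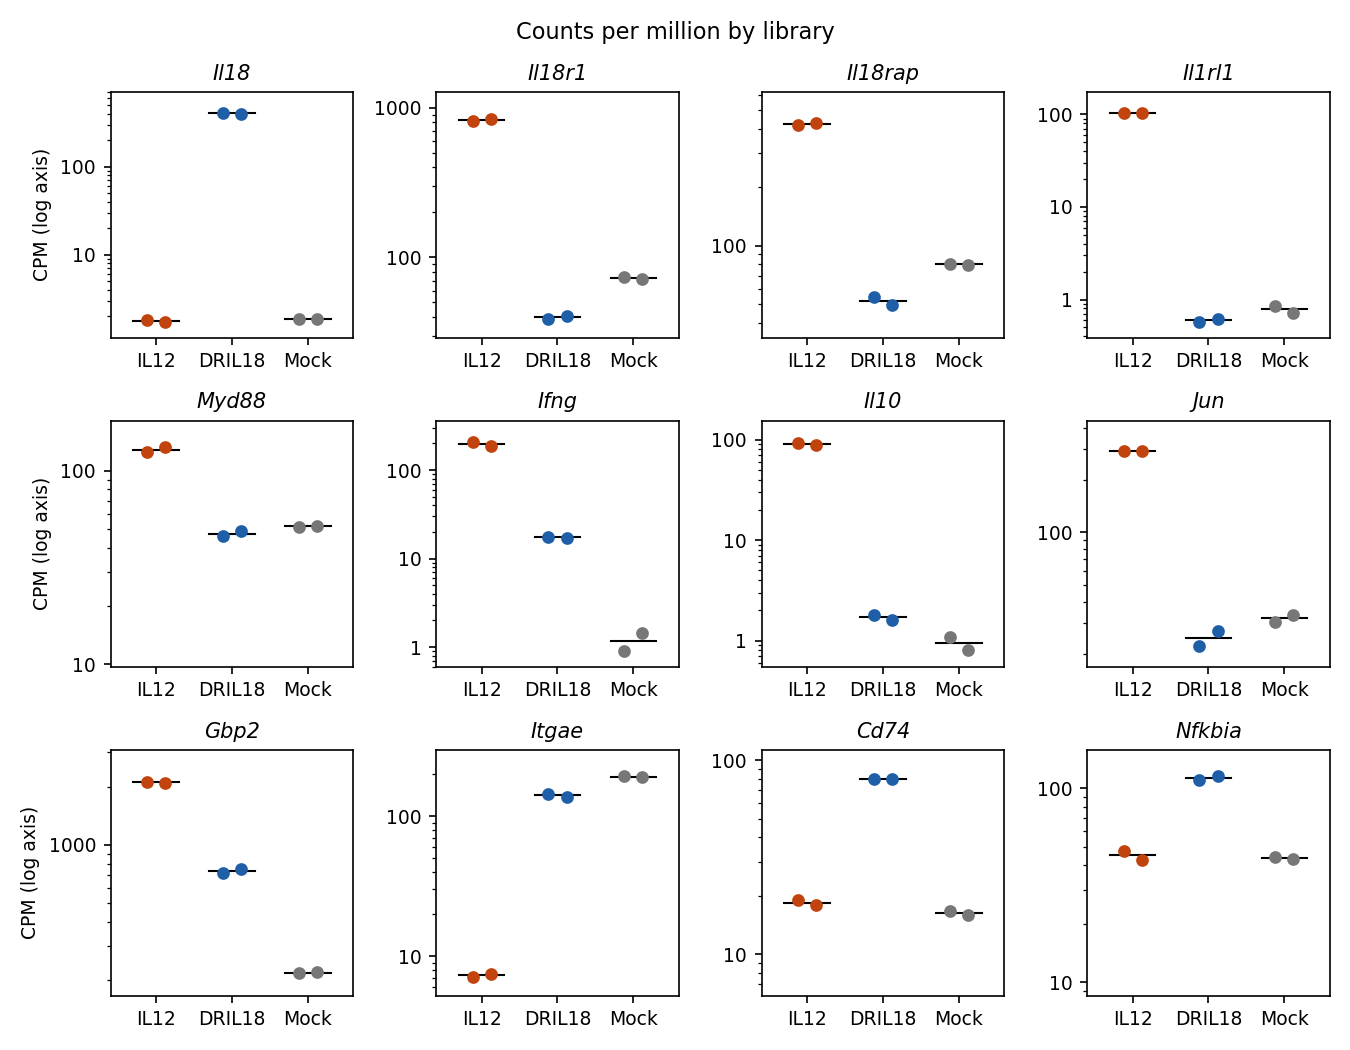
CPM of 12 genes in each library, on log axes whose range differs between panels, with IL12, DRIL18 and Mock from left to right. Points are libraries and lines are means of 2. IL12 stands apart for the receptor chains, Il10 and Jun, and DRIL18 stands apart for Il18, Cd74 and Nfkbia.

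Cytokine genes divided between the 2 treatments. Ifng had 210 and 189 CPM in IL12 cells, 17.5 and 17.2 CPM in DRIL18 cells and 0.906 and 1.43 CPM in Mock cells. Both treatments were above Mock, and IL12 was above DRIL18 by a log2 fold change of 3.52 ± 0.05 (adjusted p = 5.64e-30). Il10, an inhibitory cytokine, had 92.9 and 89.4 CPM in IL12 cells, 1.82 and 1.62 CPM in DRIL18 cells and 1.07 and 0.803 CPM in Mock cells, a log2 fold change of 5.72 ± 0.11. Il13, a type 2 cytokine, ran the other way: it had 0 counts in both IL12 libraries and 0 in both Mock libraries, against 107 counts over the DRIL18 libraries. With 3 counts set for the IL12 group, Il13 was at least 32.5-fold lower in IL12. Il21 had 21 counts over the IL12 libraries and 0 in DRIL18, at least 7.69-fold higher with the same floor over the group. Of 19 tested cytokine genes, 9 were higher in IL12, 7 lower and 3 not called. Of 10 chemokine genes, 1 was higher, 5 lower and 4 not called, with a median log2 fold change of -0.46. Ccl5, a chemoattractant for T cells, had 7.87 and 5.07 CPM in IL12 cells, against 22.6 and 23.5 CPM in DRIL18 cells.

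Transcription factors of effector T cells were mostly higher in IL12. Hlx, a homeobox partner of T-bet, had 6.21 and 5.03 CPM in IL12 cells, 0.115 and 0.147 CPM in DRIL18 cells and 0.113 and 0.149 CPM in Mock cells. Tbx21, which encodes T-bet, had 181 and 178 CPM in IL12 cells, against 88.6 and 85.2 CPM in DRIL18 cells, a log2 fold change of 1.05 ± 0.04. Eomes, a relative of T-bet, had 15.2 and 11.3 CPM in IL12 cells, 4.44 and 5.63 CPM in DRIL18 cells and 13.7 and 13.2 CPM in Mock cells. Its difference of 1.39 ± 0.14 on the log2 scale thus went with a low DRIL18 level, while IL12 and Mock did not differ past the test. Of 24 factors, 15 were higher in IL12, 5 lower and 4 not called, with a median log2 fold change of 0.51. Of 24 naive and memory cell genes, 6 were higher, 14 lower and 4 not called, with a median of -0.37. Among these, Id3, an inhibitor of E proteins kept in memory cells, had 11.2 and 9.12 CPM in IL12 cells, 35.9 and 38.3 CPM in DRIL18 cells and 41.0 and 41.0 CPM in Mock cells, while Bcl6, a repressor known from memory and follicular T cells, rose by 1.62 ± 0.11 on the log2 scale.

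The cytotoxic genes differed by member. Gzma, which encodes granzyme A, had 936 and 927 CPM in IL12 cells, 182 and 184 CPM in DRIL18 cells and 332 and 326 CPM in Mock cells, again with DRIL18 below Mock. Gzmb, the main granzyme of activated CD8 T cells, had 2288 and 1905 CPM in IL12 cells and 1701 and 1832 CPM in DRIL18 cells. Mock cells had 1970 and 1983 CPM. The log2 fold change of IL12 over DRIL18, 0.25 ± 0.05, passed the test with an adjusted p of 2.30e-04. In the main fit IL12 over Mock did not pass (log2 fold change 0.09, adjusted p = 0.182), though it did without a filter (adjusted p = 0.00804). DRIL18 over Mock passed (log2 fold change -0.16, adjusted p = 0.0190), but not with DESeq2 (adjusted p = 0.214). Prf1, the pore-forming perforin, was higher in IL12 by 1.02 ± 0.08 on the log2 scale, and Gzmk and Fasl, a granzyme and a death ligand, by 2.90 ± 0.13 and 1.97 ± 0.07. Gzmc was lower in IL12, with 5.46 and 6.61 CPM in IL12 cells, 33.2 and 39.3 CPM in DRIL18 cells and 12.4 and 10.9 CPM in Mock cells. Gzmc has near-identical neighbours in its gene cluster, and the sources used here do not say how the counting shared such reads. Of 18 tested genes, 12 were higher, 2 lower and 4 not called, with a median log2 fold change of 0.60. Among 22 checkpoint and CD28 family genes, 12 were higher, 6 lower and 4 not called. They include Pdcd1, which encodes PD-1, with 40.9 and 49.8 CPM in IL12 cells against 17.3 and 16.1 CPM in DRIL18 cells, and Cd28, the costimulatory receptor, with 715 and 706 CPM in IL12 cells against 239 and 236 CPM in DRIL18 cells.

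Genes of the interferon response were mostly lower in IL12 than in DRIL18, although Ifng itself was higher. Of 25 genes of the interferon-gamma response, MHC class II and antigen presentation, 1 was higher in IL12, 22 were lower and 2 were not called, with a median log2 fold change of -0.57. Against Mock, 6 of the 25 were higher and 4 lower in IL12, and 21 were higher and 0 lower in DRIL18. The shares of all tested genes called against Mock were 46.6% in IL12 and 24.3% in DRIL18. Cd74, the invariant chain of MHC class II, had 19.0 and 17.8 CPM in IL12 cells, 80.0 and 80.3 CPM in DRIL18 cells and 16.6 and 15.9 CPM in Mock cells. Ciita, the activator of class II genes, had 1.08 and 1.04 CPM in IL12 cells, 4.33 and 3.74 CPM in DRIL18 cells and 1.02 and 1.22 CPM in Mock cells. For both genes IL12 lay at the Mock level and DRIL18 above it. B cells also carry MHC class II. Of the 6 B cell markers 0 were higher and 4 lower in IL12, beside 18.9% and 20.6% of all tested genes, with the sums given above. The part of B cells in the class II differences was not tested. Serpina3f and Serpina3g, serine protease inhibitors induced by interferon-gamma, were lower in IL12 by log2 fold changes of -4.03 ± 0.13 and -3.04 ± 0.10. They belong to a cluster of close copies, so reads may be split between members.

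Of 19 guanylate-binding proteins and immunity-related GTPases, which defend cells against intracellular microbes, 4 were higher in IL12, 14 lower and 1 not called, with a median log2 fold change of -0.44. Gbp2 was the exception in size: it had 2121 and 2082 CPM in IL12 cells, 717 and 746 CPM in DRIL18 cells and 218 and 220 CPM in Mock cells. Gbp10 went the other way, with 7.12 and 6.54 CPM in IL12 cells, 42.4 and 40.0 CPM in DRIL18 cells and 13.9 and 14.4 CPM in Mock cells. Against Mock, 11 of the 19 were higher and 7 lower in IL12, and 19 were higher and 0 lower in DRIL18. Close copies exist in this family too. Of 41 type I interferon-stimulated genes, 6 were higher, 25 lower and 10 not called, with a median of -0.70. Rtp4, an interferon-induced chaperone of membrane receptors, had 0.294 and 0.503 CPM in IL12 cells, 9.64 and 10.3 CPM in DRIL18 cells and 8.29 and 8.15 CPM in Mock cells. Here the DRIL18 level lay near Mock and the IL12 level below both, unlike Cd74. Against Mock, 9 of the 41 were higher and 21 lower in IL12, and 20 were higher and 3 lower in DRIL18. Over all tested genes, 23.0% were higher and 23.6% lower in IL12 than in Mock (46.6% in either direction), and 12.2% were higher and 12.1% lower in DRIL18 (24.3%). The 2 comparisons share the Mock libraries. Ifngr2, the second chain of the interferon-gamma receptor, had 1.44 and 1.32 CPM in IL12 cells, 13.4 and 12.8 CPM in DRIL18 cells and 14.0 and 14.1 CPM in Mock cells, a log2 fold change of -3.25 ± 0.15. Ifngr1, the ligand-binding chain, was not called, with 285 and 284 CPM in IL12 cells, 268 and 282 CPM in DRIL18 cells and a 95% interval of the log2 difference from -0.03 to 0.13.

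**Figure D2:**
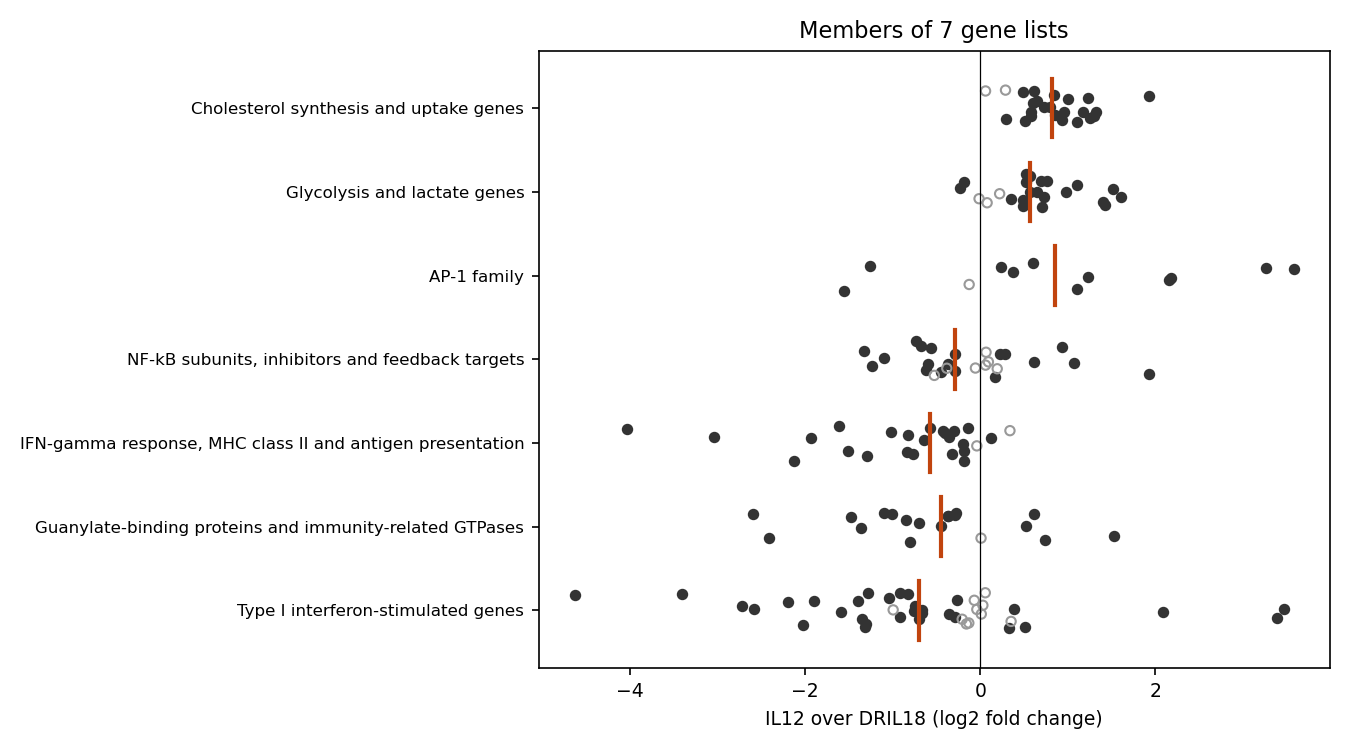
Log2 fold change of IL12 over DRIL18 for every tested member of 7 gene lists. Filled points passed the test, open points did not, the vertical bar marks the list's median, and points are spread vertically to be seen. The medians run from 0.82 for the cholesterol genes to -0.70 for the type I interferon-stimulated genes.

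Genes of homing and adhesion differed strongly in single members. Itgae, the CD103 chain that binds E-cadherin on epithelium, had 7.09 and 7.52 CPM in IL12 cells, 144 and 138 CPM in DRIL18 cells and 194 and 191 CPM in Mock cells, a log2 fold change of -4.27 ± 0.06. Its partner Itgb7 had 342 and 360 CPM in IL12 cells, 706 and 706 CPM in DRIL18 cells and 835 and 847 CPM in Mock cells. Of these 3 groups IL12 was the lowest for both chains. Of 22 integrin and adhesion genes, 9 were higher, 9 lower and 4 not called. Cxcr1, a receptor best known from neutrophils, had 330 counts over the IL12 libraries and 0 over the DRIL18 libraries, at least 121-fold higher with 3 counts set for the DRIL18 group. The 4 neutrophil markers summed to 0.098 and 0.063 CPM in IL12 cells and 0 and 0.118 CPM in DRIL18 cells. Xcr1, a chemokine receptor that marks cross-presenting dendritic cells, had 20.6 and 20.6 CPM in IL12 cells against 2.94 and 2.39 CPM in DRIL18 cells. The other dendritic cell markers are given above. Which cells carried Cxcr1 or Xcr1 was not tested. Of 16 chemokine receptor genes, 6 were higher, 4 lower and 6 not called, beside 18.9% higher and 20.6% lower over all tested genes.

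Genes of cholesterol synthesis and glycolysis were mostly higher in IL12. Of 24 genes of cholesterol synthesis and uptake, 22 were higher, 0 lower and 2 not called, with a median log2 fold change of 0.82. Lss, which closes the sterol ring, had 176 and 179 CPM in IL12 cells, 44.6 and 49.1 CPM in DRIL18 cells and 55.7 and 56.9 CPM in Mock cells. Insig1, a sterol sensor protein, was higher by 1.32 ± 0.06 on the log2 scale. Of 23 tested identifiers of glycolysis and lactate transport, 18 were higher, 2 lower and 3 not called, with a median of 0.57. Hk2, the hexokinase of activated cells, had 205 and 229 CPM in IL12 cells, 76.7 and 75.2 CPM in DRIL18 cells and 51.9 and 51.8 CPM in Mock cells. Slc2a1, the glucose transporter GLUT1, had 228 and 259 CPM in IL12 cells, 91.6 and 89.2 CPM in DRIL18 cells and 67.6 and 70.2 CPM in Mock cells. Against Mock, 22 of the cholesterol genes were higher and 0 lower in IL12, and 4 were higher and 3 lower in DRIL18. The DRIL18 count, 7 of 24, is near the 24.3% of all tested genes. For glycolysis 19 were higher and 0 lower in IL12, and 18 were higher and 0 lower in DRIL18, with median log2 fold changes of 0.92 in IL12 and 0.31 in DRIL18.

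**Figure D3:**
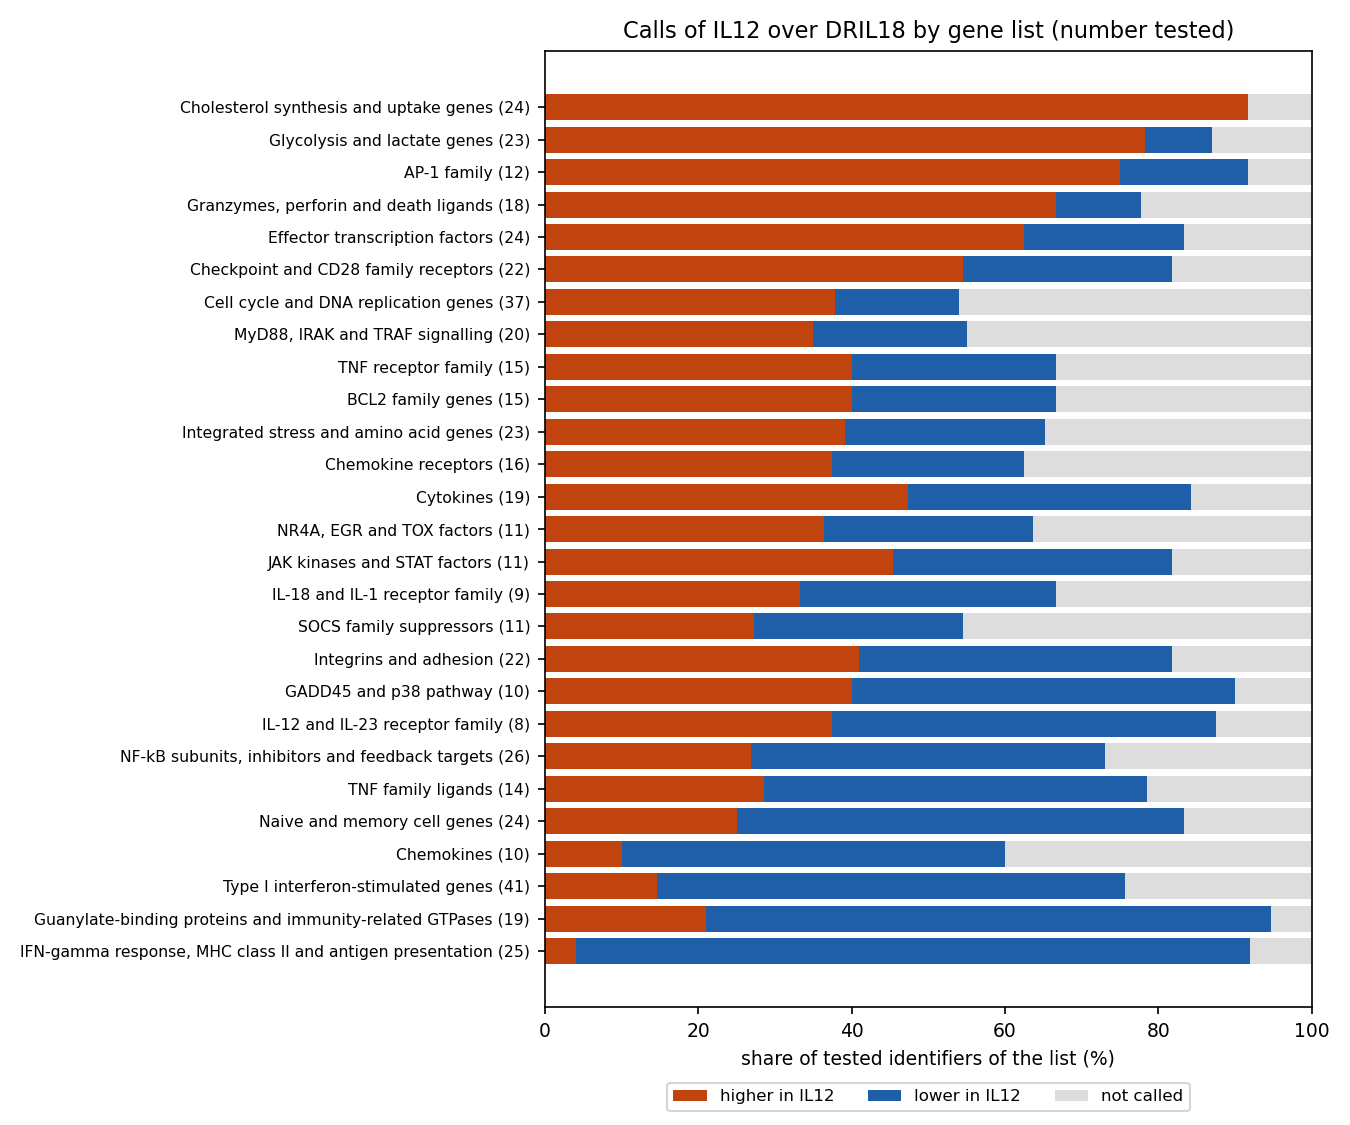
Share of the tested identifiers of each of 27 gene lists that were higher in IL12, lower in IL12 or not called, in percent, with the number tested in brackets. Over all tested genes, 18.9% were higher and 20.6% lower.

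The largest rises in IL12 were in genes that DRIL18 cells hardly expressed, which a ranking by fold change favours. P2rx3, an ATP-gated ion channel known from sensory neurons, had 94.4 and 94.5 CPM in IL12 cells, 0.260 and 0.118 CPM in DRIL18 cells and 0.0849 and 0.0892 CPM in Mock cells. Coro6, a coronin that binds actin, had 31.1 and 29.9 CPM in IL12 cells against 0.260 and 0.236 CPM in DRIL18 cells. Unc5c, a netrin receptor, and Serpinb5, a serpin known as maspin, had 345 and 346 counts over the IL12 libraries and 0 over the DRIL18 libraries, at least 126-fold and 127-fold higher with 3 counts set for the DRIL18 group. Ankrd55, Ret and Rufy4 were also among the 12 genes with the largest rises, at log2 fold changes from 6.18 to 6.48, and 2 of the 12 are predicted genes without an established function. At the other end, the largest falls after Il18, Rtp4, Itgae and Serpina3f included Rxra and Cmpk2. Rxra, a nuclear receptor for retinoids, had 1.37 and 1.38 CPM in IL12 cells, 18.1 and 16.9 CPM in DRIL18 cells and 12.1 and 14.2 CPM in Mock cells. Cmpk2, an interferon-induced nucleotide kinase, had 2.38 and 1.54 CPM in IL12 cells, 19.9 and 21.6 CPM in DRIL18 cells and 18.3 and 15.8 CPM in Mock cells. For Rxra and Cmpk2 the IL12 libraries also lay below those of Mock. Their separation from the DRIL18 libraries was a condition of the choice.

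Against Mock, IL12 changed 7356 genes (46.6% of those tested) and DRIL18 changed 3832 (24.3%), or 2525 without Mock replicate 2. Both comparisons use the same Mock libraries. Genes that moved in opposite directions were 286 up in IL12 and down in DRIL18 (1.81%) and 195 down in IL12 and up in DRIL18 (1.24%), 481 in all. With unscaled library sizes the balance turned, to 212 genes of the first pattern and 285 of the second. These counts rest on both Mock libraries: the total was 288 without Mock replicate 1 and 273 without Mock replicate 2. The first pattern then held 181 and 159 genes. The second held 107 without Mock replicate 1, 114 without Mock replicate 2 and 123 without DRIL18 replicate 2. With the mark bis of some columns as a covariate, IL12 changed 6781 genes against Mock and DRIL18 changed 3350. In that setting 369 genes moved in opposite directions, 226 of the first pattern and 143 of the second. Most opposite moves were small. In the first pattern the median log2 fold change against Mock was 0.47 in IL12 and -0.26 in DRIL18, and in the second -0.49 in IL12 and 0.37 in DRIL18. At least 1.5-fold in both directions were 46 genes of the first pattern and 38 of the second, and at least 2-fold 9 and 9.

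Up in IL12 and down in DRIL18, Ret, a receptor tyrosine kinase for glial-derived growth factors, had 11.5 and 14.7 CPM in IL12 cells, 0.173 and 0.177 CPM in DRIL18 cells and 1.13 and 1.07 CPM in Mock cells. Prag1, a pseudokinase scaffold, had 58.6 and 59.3 CPM in IL12 cells, 2.08 and 1.65 CPM in DRIL18 cells and 4.30 and 6.13 CPM in Mock cells. Lgals3, which encodes galectin-3, had 92.4 and 97.6 CPM in IL12 cells, 18.5 and 20.2 CPM in DRIL18 cells and 44.6 and 47.5 CPM in Mock cells. These genes were chosen for opposite calls against Mock, so the middle place of Mock follows from the choice. Their difference between IL12 and DRIL18 is not independent of it either. The libraries of the 3 groups did not overlap in these genes, which the choice favours as well. Nt5e, which encodes CD73, the enzyme that makes adenosine outside the cell, had 42.6 and 45.9 CPM in IL12 cells, 8.80 and 9.43 CPM in DRIL18 cells and 17.6 and 16.6 CPM in Mock cells. Fam20a, Itih5, Fam19a3, Col6a2 and Ppp2r2c were also among the largest of this pattern. The DRIL18 fall of Col6a2 and Ppp2r2c rests on single libraries: it lost its call without DRIL18 replicate 1 or Mock replicate 2 for Col6a2 (adjusted p = 0.0538 and 0.142), and without DRIL18 replicate 2 or Mock replicate 1 for Ppp2r2c (0.0799 and 0.393). Ppp2r2c also lost its rise in IL12 without Mock replicate 2 (adjusted p = 0.0960). Il18r1 and Il18rap, given above, belong to this pattern as well, as do Gzma and Jun.

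Down in IL12 and up in DRIL18, Ube2l6, an enzyme that attaches the interferon-induced modifier ISG15, had 0.751 and 1.35 CPM in IL12 cells, 11.7 and 10.8 CPM in DRIL18 cells and 6.08 and 5.09 CPM in Mock cells. Podnl1, a small leucine-rich proteoglycan, had 19.4 and 19.2 CPM in IL12 cells, 90.8 and 86.9 CPM in DRIL18 cells and 45.0 and 43.0 CPM in Mock cells. Pou2f2, the lymphoid transcription factor OCT2, had 32.8 and 30.0 CPM in IL12 cells, 120 and 119 CPM in DRIL18 cells and 56.7 and 62.1 CPM in Mock cells. Here too the middle place of Mock follows from the choice of genes. The libraries of the groups did not overlap, which the choice also favours. Slc2a6, a sugar transporter of lysosomes, had 1.08 and 1.01 CPM in IL12 cells, 7.53 and 7.78 CPM in DRIL18 cells and 1.95 and 2.14 CPM in Mock cells. Gbp10, Gzmc, Pkhd1l1, Tmtc4, Pdia5 and a predicted GTPase gene, Gm4951, complete the 10. The DRIL18 rise of Pdia5 did not pass without DRIL18 replicate 2 (adjusted p = 0.0551). Asb2, a subunit of a ubiquitin ligase, has the same pattern, with 5.16 and 4.59 CPM in IL12 cells, 41.3 and 42.4 CPM in DRIL18 cells and 8.60 and 6.66 CPM in Mock cells.

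**Figure D4:**
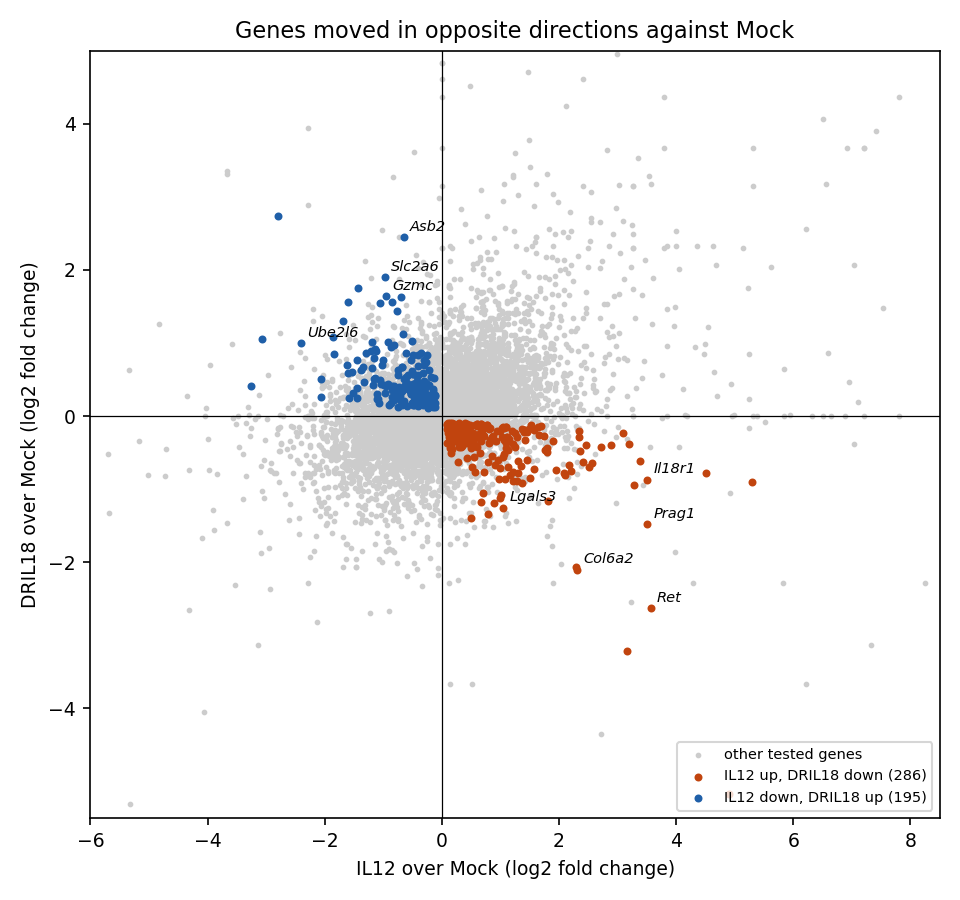
Log2 fold change of each tested gene in IL12 over Mock (horizontal) and in DRIL18 over Mock (vertical). Coloured points are the 286 and 195 genes that moved in opposite directions; both axes share the Mock libraries, and 22 other genes lie outside the axes. Ret, Prag1 and Col6a2 lie lowest among the labelled genes that rose in IL12.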

How the data were processed

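The authors deposited raw read counts, whole and unscaled, over 55359 Ensembl identifiers and 10 libraries. Per the submitters' processing notes, STAR 2.7.9, featureCounts, edgeR and limma were used with the build mm39. Per the labels' protocols, libraries were made with the TruSeq Stranded mRNA kit. The sources used here do not give the strand setting, the annotation release or the handling of reads with several alignments, so overlapping and antisense genes are uncertain. A second table of log2 values was not used. Some columns carry the mark bis, whose meaning is not given, and it was tried as a covariate. In IL12 and DRIL18 only replicate 2 carries it. Neither Mock library does, and all mixture libraries and libraries without electroporation do. The mark is therefore balanced between IL12 and DRIL18 but not against Mock.

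Identifiers were given symbols from GENCODE M21 (GRCm38), ignoring versions: 52083 matched and 3276 did not. Since the builds differ, no gene coordinates were taken from it, and the regions shown carry RefSeq coordinates on GRCm38.p6. Of the 143 genes named by rule, 102 had such a region.

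All 10 libraries were fitted with 5 group means in edgeR 4.0.16 (R 4.3.3), with TMM factors from 0.955 to 1.03, filterByExpr over all 10 libraries (15777 tested genes, or 14677 from the IL12 and DRIL18 libraries alone), quasi-likelihood F tests (5 residual degrees of freedom) and Benjamini-Hochberg adjustment over all tested genes of a comparison. A call is an adjusted p under 0.05. The fit's common coefficient of variation between replicates was 3.39%. Replicates differed by more than sampling noise, so none were merged. CPM are on TMM-scaled library sizes. They are not per length and do not compare genes. ± is the standard error of the log2 fold change. Folds against 0 counts use 3 counts over the group and, like counting intervals, cover counting error only. In bulk samples, fewer cells of a type and less RNA per cell cannot be told apart. The procedure was tested on simulated counts.

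Named by rule were the 12 largest changes each way with at least 5 CPM and separate libraries, 10 opposite movers each way, up to 4 called members of each of 27 lists, and further receptor and effector genes. Some genes selected in this way are not reported here. The groups, lists (518 genes, 488 tested) and named receptor and effector genes were chosen with earlier results of these data known. Alternatives were DESeq2 1.42.0, limma-voom 3.58.1, other scalings, no filter, a replicate block, the 4 libraries alone, and each IL12, DRIL18 and Mock library left out.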

Additional observations from a re-analysis of the deposited data

How the results depend on the processing

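The number of genes that differed between IL12 and DRIL18 was 6231 with DESeq2's size factors, 6729 with unscaled library sizes (added after seeing the data), 5302 with DESeq2, 6162 with limma-voom, 6048 without a filter, 6246 with the mark bis as a covariate, and 5890 from the 4 libraries alone. With a replicate block it was 6210, of which 6160 were shared with the 6235 reported, and 5829 from the 4 libraries with the block (also added later). Same-numbered libraries of IL12 and DRIL18 did not deviate together (r = -0.0517 over 9756 genes), so no effect shared by the replicate number was seen. The value cannot tell whether same-numbered libraries share a mouse or culture, which the labels do not give.

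Leaving out 1 library gave 4893 to 6062 genes for IL12 over DRIL18. A group left with 1 library is assumed to vary like the others. The ranges were 2404 to 2967 genes higher, 2489 to 3113 lower, 1093 to 1234 at least 2-fold, 6010 to 7265 for IL12 against Mock, 2525 to 4125 for DRIL18 against Mock, 273 to 484 opposite movers, 159 to 296 up in IL12 and down in DRIL18, and 107 to 191 of the other pattern.

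Only unscaled library sizes moved the number of genes higher in IL12 by more than 1.5 times, to 1943. Asking for 2-fold left 1229 genes, and asking for 1.5-fold on both sides left 84 opposite movers. The small lead of genes lower in IL12 depended on the setting: DESeq2's size factors gave 3120 higher and 3111 lower, DESeq2 2703 and 2599, and the 4 libraries alone 2992 and 2898. With unscaled library sizes the balance of opposite movers turned to 212 and 285, and the medians of the cell cycle and MyD88 lists fell below 0 (-0.0359 and -0.0176). No called difference of a named gene changed sign. Over the named genes and all settings, a call of IL12 over DRIL18 ended in 58 cases, was added in 1 and kept its side of the threshold in 2075. Il6, Il23r, Cx3cr1 and Fosl1, each below 1 CPM in all 4 libraries, lost theirs in several settings. The cause was not tested. With 2 libraries a group, small differences of low-count genes are not detectable at this depth.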

Other observations

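Genes of cell survival, TNF signalling and stress also differed between IL12 and DRIL18, without a common direction. Of 15 BCL2 family genes, 6 were higher in IL12, 4 lower and 5 not called, beside 18.9% higher and 20.6% lower over all tested genes. Bcl2l11, which encodes the death-promoting protein BIM, had 156 and 162 CPM in IL12 cells, 52.4 and 52.0 CPM in DRIL18 cells and 57.8 and 61.4 CPM in Mock cells, while Bmf, another death-promoting member, had 3.59 and 3.05 CPM in IL12 cells against 11.1 and 11.0 CPM in DRIL18 cells. Of 15 TNF receptor family genes, 6 were higher, 4 lower and 5 not called. Tnfrsf1b, the TNF receptor of lymphocytes, had 466 and 470 CPM in IL12 cells against 140 and 144 CPM in DRIL18 cells. Tnfrsf8, which encodes CD30, had 36.0 and 34.5 CPM in IL12 cells, 57.6 and 58.7 CPM in DRIL18 cells and 20.6 and 21.8 CPM in Mock cells. Of 14 TNF family ligands, 4 were higher, 7 lower and 3 not called, and Tnfsf4, which encodes OX40 ligand, was higher by a log2 fold change of 1.07 ± 0.09.

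Of 37 cell cycle and DNA replication genes, 14 were higher in IL12, 6 lower and 17 not called, but 7 were higher and 14 lower with unscaled library sizes, so no direction is given for them. The same holds for 23 genes of the integrated stress response and amino acid supply, with 9 higher and 6 lower, against 6 higher and 9 lower with unscaled library sizes. Of 11 NR4A, EGR and TOX factors, which respond to receptor signals, 4 were higher, 3 lower and 4 not called. Egr1, an early response factor, had 54.0 and 50.8 CPM in IL12 cells, 10.7 and 10.6 CPM in DRIL18 cells and 14.0 and 16.1 CPM in Mock cells, while Nr4a3 had 3.17 and 2.86 CPM in IL12 cells, 6.90 and 8.66 CPM in DRIL18 cells and 7.44 and 8.33 CPM in Mock cells. Of the 1229 genes that differed at least 2-fold between IL12 and DRIL18, 173 were called against Mock in neither group.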
